A study of Homo sapiens with 12 samples.

Results

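GCLC, GCLM, GSS, GSR, TXN, TXNRD1, SRXN1, NQO1, NFE2L2 and KEAP1 were followed in RNA-seq of 2 pancreatic cancer cell lines. They are 10 of the 58721 genes in the deposited tables and were taken by gene symbol, as the core genes of glutathione production and recycling, of the thioredoxin system and of the NRF2 pathway. The cells of all 12 libraries were iDox-shGOT1 derivatives of Pa-Tu-8902 or MIA PaCa-2, which carry a doxycycline (dox)-inducible short hairpin RNA against GOT1, the cytosolic aspartate aminotransferase. In each line 3 libraries came from untreated cells and 3 from cells kept in dox for 5 days. Dox was given at 1 µg/mL by the methods and at 1 µM/mL by the labels. Every library carried the hairpin and no line with a non-targeting hairpin was analysed here, so a change caused by dox cannot be told apart from a change caused by loss of GOT1. Which of the hairpins against GOT1 the sequenced cells carried, and whether the replicates were separate cultures, is not given in the sources used here, so p-values measure the spread between these libraries, which may be technical. On GRCh38, GCLC lies at chr6:53497341-53616970, GCLM at chr1:93885199-93909456, TXNRD1 at chr12:104215779-104350307, NQO1 at chr16:69706996-69726668 and KEAP1 at chr19:10486125-10503558, of which TXNRD1 is on the plus strand and the others on the minus strand.

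Glutathione is made in 2 steps, by glutamate-cysteine ligase (the catalytic subunit GCLC with the modifier subunit GCLM) and then by glutathione synthetase (GSS), and its oxidised form is returned to the reduced form by glutathione reductase (GSR) with NADPH. Thioredoxin (TXN) reduces protein disulfides and is itself reduced by the selenoprotein thioredoxin reductase 1 (TXNRD1), while sulfiredoxin (SRXN1) restores overoxidised peroxiredoxins and NQO1 reduces quinones. NRF2, the product of NFE2L2, is a transcription factor that binds antioxidant response elements near many of these genes, and KEAP1 is the adaptor that directs NRF2 to degradation.

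Libraries held 26226537 to 43406137 counts, of which the 10 genes took 0.161% to 0.201%. GOT1, the targeted gene, was at 78.3, 81.5 and 83.4 TPM, an abundance scaled by transcript length, in untreated and 4.51, 3.29 and 3.68 TPM in dox-treated Pa-Tu-8902. In MIA PaCa-2 it was at 44.1, 38.9 and 42.7 TPM without and 1.68, 1.95 and 1.87 TPM with dox. GOT1 thus fell in both lines, to 4.02% of the untreated level in Pa-Tu-8902 (log2 fold change -4.64 ± 0.09 SE, edgeR adjusted p = 1.51e-09) and to 3.68% in MIA PaCa-2 (-4.76 ± 0.11 SE, edgeR adjusted p = 1.06e-09). Line markers followed the labels: MTAP and CDKN2A, in a region known to be deleted in MIA PaCa-2, had at most 5 counts in any MIA PaCa-2 library, and MTAP was at 93.37 TPM or more in every Pa-Tu-8902 library. KRT8, KRT18 and KRT19 were at 127.7 TPM or more in every library, but EPCAM was at most 0.36 TPM and CDH1 at most 0.22 TPM in MIA PaCa-2. The 14 markers of leukocytes, fibroblasts, endothelium and acinar cells summed to 4.22 to 7.97 TPM in untreated and 18.8 to 22.8 TPM in dox-treated Pa-Tu-8902, where COL1A1 held 17.5 to 21.2 TPM, and to 3.73 to 4.71 and 2.45 to 2.49 TPM in MIA PaCa-2. CELA3A was at 0 in every library. Of the leukocyte markers, PTPRC was at most 0.14 TPM, but CD14 was at 3.42 to 4.06 TPM in untreated MIA PaCa-2. With dox CD14 was at 1.42 to 1.86 TPM there, and it was at most 1.01 TPM in Pa-Tu-8902. In bulk RNA fewer cells with a transcript and less of it per cell cannot be told apart. Untreated MIA PaCa-2 replicate 2 stood apart from the other 2 untreated libraries of that line (chi-square per degree of freedom 27.3 and 25.5, against 6.4 between the others), so results of MIA PaCa-2 are also given without it where a call changed.

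The start regions of these genes were searched for the letters TGACNNNGC, the core of the antioxidant response element, on both strands, over 250 bases before to 50 bases after each RefSeq start site (GRCh38.p14). Of 35116 such windows, 13.3% held a match, as did 14.4% of the 15940 windows of genes tested in the 12 libraries. Among the 11 windows found for 8 of the genes, 4 held a match (36.4%). They belong to GCLM, to both windows of TXNRD1 and to 1 of the 2 windows of KEAP1, and are shown because several results below turn on GCLM, TXNRD1 and KEAP1. GSS and GSR had no window here, and the windows of GCLC, TXN, SRXN1, NQO1 and NFE2L2 did not hold these letters, which says nothing of sites elsewhere. In the 29-base stretches below, written 5′ to 3′ in the direction of the gene, capitals mark the match, and positions count from the start site as 0. A match is a description of the letters and not a measured site.
GCLM, chr1:93909446-93909474, minus strand, match at -34: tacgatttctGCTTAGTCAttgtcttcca
TXNRD1, upstream start, chr12:104215670-104215698, plus strand, match at -99: acacgggctaTGACTTCGCtgttgtcacc
TXNRD1, upstream start, chr12:104215761-104215789, plus strand, match at -8: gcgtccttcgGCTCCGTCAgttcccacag
TXNRD1, downstream start, chr12:104286920-104286948, plus strand, match at -102: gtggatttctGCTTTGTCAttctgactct
KEAP1, chr19:10502807-10502835, minus strand, match at -54: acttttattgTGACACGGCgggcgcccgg
KEAP1, chr19:10502784-10502812, minus strand, match at -31: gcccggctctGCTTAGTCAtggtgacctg

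TPM are scaled by transcript length, so levels of different genes were compared on this scale. TXN was the most abundant of the 10 genes in untreated Pa-Tu-8902 at 1055 ± 13.3 TPM (SD, n = 3), followed by NQO1 at 413 ± 11 TPM, TXNRD1 at 204 ± 8.06 TPM and KEAP1 at 125 ± 3.58 TPM. GSR (61.8 ± 1.19 TPM), GSS (55.6 ± 1.86 TPM), SRXN1 (53.1 ± 1.19 TPM), NFE2L2 (39.8 ± 0.885 TPM), GCLC (39.4 ± 3.74 TPM) and GCLM (24.5 ± 1.94 TPM) came lower. Libraries of GSS and SRXN1 overlapped in this order, as did those of NFE2L2 and GCLC, and no other neighbours did. In untreated MIA PaCa-2 the order was led by NQO1 at 680 ± 5.55 TPM, ahead of TXN at 513 ± 55.1 TPM and TXNRD1 at 201 ± 27 TPM. There GSS (79.6 ± 3.96 TPM), GCLM (70.5 ± 5.87 TPM) and SRXN1 (63.0 ± 3.64 TPM) overlapped in turn, KEAP1 (53.6 ± 4.28 TPM), GSR (39.5 ± 3.24 TPM) and NFE2L2 (29.7 ± 1.66 TPM) followed, and GCLC was lowest at 15.3 ± 0.709 TPM. The subunit of glutamate-cysteine ligase that ranked last was thus GCLM in Pa-Tu-8902 and GCLC in MIA PaCa-2. With dox, TXN was highest in both lines (973 ± 33.3 TPM for Pa-Tu-8902, 554 ± 8.05 TPM for MIA PaCa-2), and in MIA PaCa-2 its libraries then overlapped with those of NQO1 (537 ± 18.2 TPM).

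**Figure D1:**
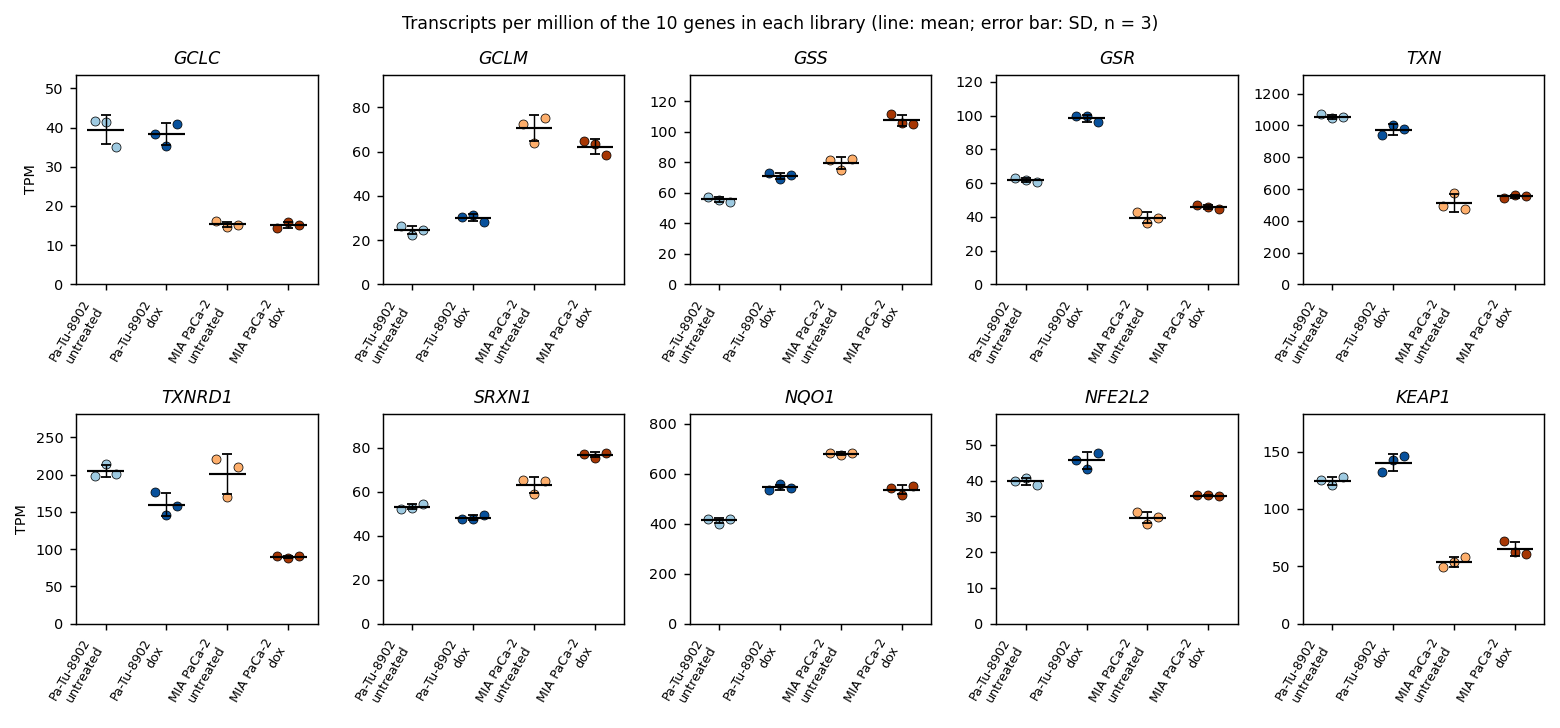
TPM of the 10 genes (y axes from 0, a scale of its own for each gene) in the 12 libraries, with 4 groups of 3 on the x axes; points are libraries, lines the means and error bars the SD. TXNRD1 fell from 201 to 89.9 TPM in MIA PaCa-2, while NQO1 went from 413 to 545 TPM in Pa-Tu-8902 and from 680 to 537 TPM in MIA PaCa-2.

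The untreated lines were compared first, to show from which level each line started. Testing with edgeR took in genes that reached 10 counts in 3 or more of the 6 libraries, and a gene was called at an adjusted p below 0.01 (Benjamini-Hochberg over all genes tested) and a fold change of at least 1.5. Of the 10 genes, 6 were called, 3 higher and 3 lower in Pa-Tu-8902, where 58.1% of all 15608 tested genes were called (28.9% higher and 29.3% lower), so the share among the 10 is close to that of all genes. The 10 had a median log2 difference of 0.13, against -0.03 over all genes. Without the fold limit 9 of the 10 passed, where 72.9% of all genes did. Each of the 10 had at least 822 counts in every library. All tested genes include genes of low count, which pass a p threshold less easily. Shares passing by p alone are therefore not on equal terms, here and below. The comparison is of 1 line with 1 other and holds for these cells.

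Among the 10 genes, the largest differences between the untreated lines in each direction were those of the subunits of glutamate-cysteine ligase. GCLC, the catalytic subunit, had normalised read counts of 2978, 2809 and 2777 in Pa-Tu-8902 against 1071, 993 and 986 in MIA PaCa-2, and was 2.77-fold higher in Pa-Tu-8902 (log2 1.47 ± 0.08 SE, edgeR adjusted p = 7.08e-10). GCLM, the modifier subunit, had 1826, 1888 and 1999 in Pa-Tu-8902 against 6749, 6729 and 6367 in MIA PaCa-2, and was 3.52-fold lower (log2 -1.81 ± 0.07 SE, edgeR adjusted p = 2.65e-11). The groups of 3 did not overlap for either subunit. They did not for 9 of the 10 genes, a share close to the 81.5% of all tested genes. The ratio of GCLC to GCLM in TPM was 1.58, 1.85 and 1.42 in untreated Pa-Tu-8902 and 0.222, 0.230 and 0.201 in untreated MIA PaCa-2.

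Among the other genes, KEAP1 was 2.42-fold higher in Pa-Tu-8902 (6820 ± 675 against 2780 ± 178 normalised counts, SD, n = 3; log2 1.28 ± 0.08 SE, edgeR adjusted p = 4.06e-09). TXN was 1.97-fold higher (log2 0.98 ± 0.11 SE, edgeR adjusted p = 2.53e-06), from 16318, 15791 and 16805 against 7356, 10153 and 7046 normalised counts. The highest TXN value of MIA PaCa-2 is that of replicate 2, and without that library the log2 difference was 1.11. NQO1 was 1.74-fold lower in Pa-Tu-8902 (9523 ± 525 against 16365 ± 891 normalised counts; log2 -0.80 ± 0.07 SE, edgeR adjusted p = 1.7e-07).

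GSS and GSR lay at the fold limit on either side of 0. GSS was 1.52-fold lower in Pa-Tu-8902 (log2 -0.60 ± 0.07 SE, edgeR adjusted p = 2.26e-06) and was called, and GSR had a log2 difference of 0.58 ± 0.07 SE (edgeR adjusted p = 3.85e-06), just below the limit, and was not. Their calls changed places with the size factors of DESeq2, so neither call rests on a margin larger than its error. SRXN1 (log2 -0.29 ± 0.07 SE) and NFE2L2 (log2 0.38 ± 0.07 SE) passed the p threshold only. TXNRD1 had a log2 difference of -0.12 ± 0.07 SE (edgeR adjusted p = 0.141), with 14914 ± 479 normalised counts in Pa-Tu-8902 against 15992 ± 901 in MIA PaCa-2, and its libraries overlapped. Without untreated MIA PaCa-2 replicate 2 its log2 difference was -0.21 (edgeR adjusted p = 0.0029).

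**Figure D2:**
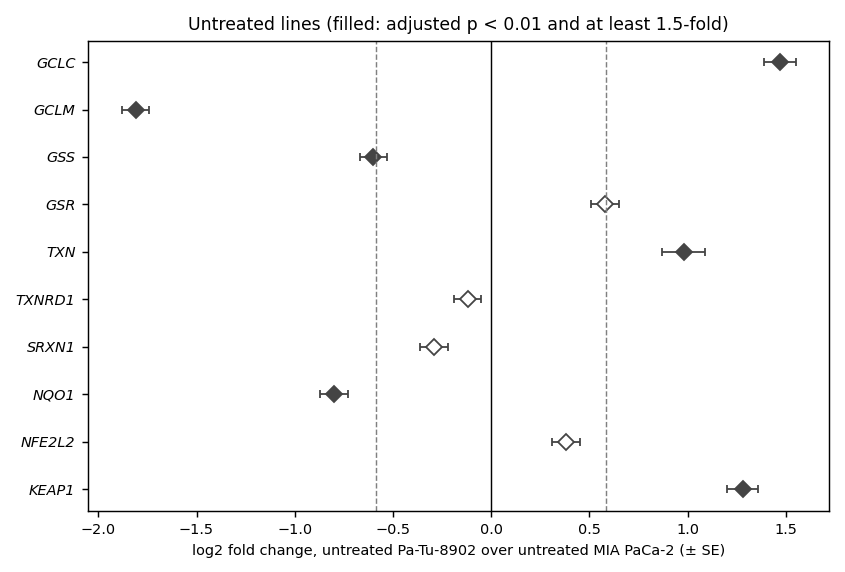
Log2 fold change of each gene between untreated Pa-Tu-8902 and untreated MIA PaCa-2 (x axis, ± SE, 3 libraries a line), positive where Pa-Tu-8902 is higher; filled symbols were called and dashed lines mark 1.5-fold. GCLC at 1.47 and KEAP1 at 1.28 lie far to the right and GCLM at -1.81 far to the left.

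Dox was then compared with no dox within each line, to ask how these genes stood after GOT1 knockdown. In Pa-Tu-8902, 1 of the 10 genes was called, GSR, which rose, where 16.3% of all 14949 tested genes were called (9.22% higher and 7.12% lower). In MIA PaCa-2, 1 of the 10 was called, TXNRD1, which fell, where 12% of all 14589 tested genes were called (4.36% higher and 7.64% lower). With 1 called gene of 10 in each line, these shares are too coarse to be set apart from those of all genes. Smaller shifts also passed by p alone. Without the fold limit 6 of the 10 passed in Pa-Tu-8902 (4 higher and 2 lower), against 38.1% of all genes, and 5 of the 10 in MIA PaCa-2 (2 higher and 3 lower), against 27.2%. The higher counts of the 10 bear on these shares too. The median log2 fold change of the 10 was 0.09 in each line, and over all genes it was 0.00 (Pa-Tu-8902) or -0.01 (MIA PaCa-2). The untreated libraries are shared with the comparison of the lines above.

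In glutathione synthesis, GCLC did not pass the test in either line. It had 2978, 2809 and 2777 normalised counts without and 2677, 2596 and 2873 with dox in Pa-Tu-8902 (log2 -0.07 ± 0.05 SE, edgeR adjusted p = 0.303), and 1017 ± 47.2 against 989 ± 13.7 in MIA PaCa-2 (log2 -0.04 ± 0.07 SE, edgeR adjusted p = 0.695). Libraries with and without dox overlapped in both lines. GCLM was 1826, 1888 and 1999 without and 2182, 2156 and 2311 with dox in Pa-Tu-8902, which is 1.16-fold higher (log2 0.22 ± 0.05 SE, edgeR adjusted p = 0.00487). In MIA PaCa-2 it was 6749, 6729 and 6367 without and 5584, 5522 and 5756 with dox, which is 1.17-fold lower (log2 -0.23 ± 0.06 SE, edgeR adjusted p = 0.00732). The GCLM groups did not overlap in either line, as held for 7 of the 10 genes in Pa-Tu-8902 and 8 of the 10 in MIA PaCa-2, against 58.1% and 52.8% of all genes. GSS passed the p threshold in the same direction in both lines, as TXNRD1 alone did besides. It was 1.23-fold higher in Pa-Tu-8902 (2081 ± 108 to 2556 ± 30.7 normalised counts, log2 0.30 ± 0.05 SE, edgeR adjusted p = 0.000616) and 1.3-fold higher in MIA PaCa-2 (3119 ± 130 to 4053 ± 133, log2 0.38 ± 0.06 SE, edgeR adjusted p = 0.000459), under the fold limit in both.

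GSR, which recycles glutathione, rose in Pa-Tu-8902. Normalised counts were 4442, 4276 and 4583 without and 6555, 7027 and 6469.6 with dox, so every dox-treated library was above every untreated one. The rise was 1.51-fold (log2 0.59 ± 0.05 SE, edgeR adjusted p = 4.75e-06), at the fold limit itself, and without untreated replicate 2 or without dox-treated replicate 2 it was 0.57 or 0.58 on the log2 scale and no longer called. In TPM it went from 61.8 ± 1.19 to 98.4 ± 2.04. In MIA PaCa-2 GSR was 3034, 3003 and 2746 without and 3240.5, 3258 and 3264 with dox (log2 0.16 ± 0.06 SE, edgeR adjusted p = 0.0615) and did not pass, although the groups did not overlap.

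TXNRD1, the reductase of thioredoxin, fell in MIA PaCa-2 from 16863, 15064 and 16048 to 7254, 6958 and 7162 normalised counts, so that every dox-treated library was below every untreated one. This 2.24-fold fall (log2 -1.16 ± 0.06 SE, edgeR adjusted p = 2e-07) was called under every alternative tried, with log2 values from -1.22 to -1.13, and was -1.21 without untreated replicate 2. In Pa-Tu-8902 TXNRD1 went from 14617, 14658 and 15466 to 11008, 10349 and 10792, again with no overlap, which is 1.39-fold lower (log2 -0.47 ± 0.05 SE, edgeR adjusted p = 1.81e-05) and under the fold limit.

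TXN itself was not called in either line. In MIA PaCa-2 it had 7356, 10153 and 7046 normalised counts without and 8144, 8338 and 8359 with dox (log2 0.02 ± 0.11 SE, edgeR adjusted p = 0.904), and the groups overlapped through untreated replicate 2. Without that library the log2 fold change was 0.20 (edgeR adjusted p = 0.003). In Pa-Tu-8902 TXN was 16305 ± 507 without and 14289 ± 1100 with dox (log2 -0.19 ± 0.06 SE, edgeR adjusted p = 0.0217). SRXN1, the repair enzyme of peroxiredoxins, had 3257 ± 217 normalised counts without and 2789 ± 95.2 with dox in Pa-Tu-8902 (log2 -0.22 ± 0.06 SE, edgeR adjusted p = 0.00668), but 3928 ± 111 and 4612 ± 142 in MIA PaCa-2 (log2 0.23 ± 0.06 SE, edgeR adjusted p = 0.00713). SRXN1 thus passed the p threshold with opposite signs in the lines, 1.17-fold lower and 1.18-fold higher.

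NQO1, the quinone reductase often read as a reporter of NRF2, also had opposite signs. In Pa-Tu-8902 it went from 9438, 9045 and 10085 to 11627, 12590.0 and 12262 normalised counts, 1.28-fold higher (log2 0.35 ± 0.05 SE, edgeR adjusted p = 0.000269). In MIA PaCa-2 it went from 16048, 17372 and 15676 to 11989, 11448 and 12617, 1.36-fold lower (log2 -0.44 ± 0.07 SE, edgeR adjusted p = 0.000296). Neither change reached the fold limit and neither pair of groups overlapped, and the dox-treated means of the lines, 12160 ± 490 and 12018 ± 585 normalised counts, lay within 1 SD of each other.

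NFE2L2 and KEAP1, the regulators, were not called in either line. NFE2L2 had 2433 ± 94 normalised counts without and 2620 ± 121 with dox in Pa-Tu-8902 (log2 0.11 ± 0.05 SE, edgeR adjusted p = 0.105), and 1849 ± 78.3 and 2162 ± 25.9 in MIA PaCa-2 (log2 0.23 ± 0.06 SE, edgeR adjusted p = 0.0105). KEAP1 had 6820 ± 675 without and 7117 ± 521 with dox in Pa-Tu-8902 (log2 0.06 ± 0.07 SE, edgeR adjusted p = 0.497), and 2780 ± 178 and 3266 ± 147 in MIA PaCa-2 (log2 0.24 ± 0.07 SE, edgeR adjusted p = 0.0155). Neither passed the p threshold in either line, but without untreated replicate 2 both did in MIA PaCa-2, with log2 fold changes of 0.24 for NFE2L2 (edgeR adjusted p = 0.0016) and 0.28 for KEAP1 (edgeR adjusted p = 0.000333). In a later GENCODE release than the one used for counting, NFE2L2 shares up to 3225 exonic bases with HNRNPA3 on the other strand. HNRNPA3 had a mean of 23300 counts against 2277 for NFE2L2, and no strand setting is given for the counting. The lowest position of NFE2L2 in that later release is 177218667, but that of NFE2L2-201, its most abundant transcript, is 177230308. Whether the pair overlaps in the release used for counting, and whether reads were shared out between them, was not tested.

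**Figure D3:**
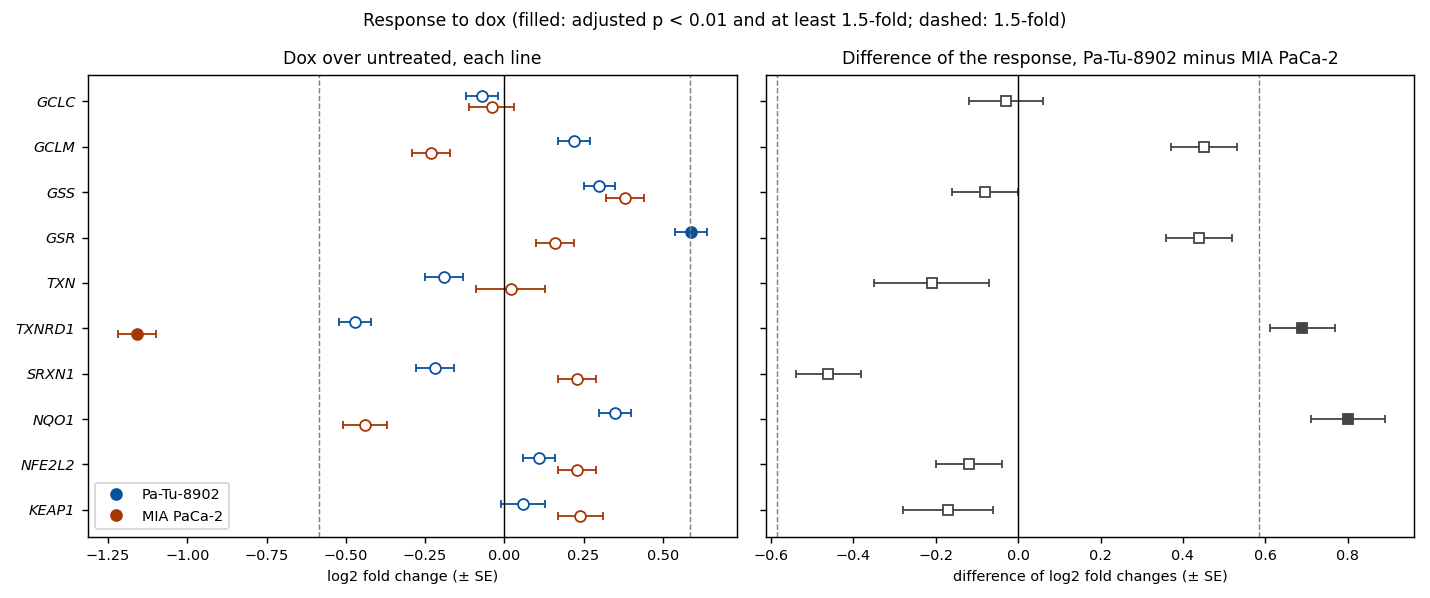
Left, log2 fold change of each gene with dox (x axis, ± SE) in Pa-Tu-8902 (blue) and MIA PaCa-2 (brown); right, the difference of these responses, Pa-Tu-8902 minus MIA PaCa-2 (± SE). Filled symbols were called and dashed lines mark 1.5-fold: GSR at 0.59 in Pa-Tu-8902, TXNRD1 at -1.16 in MIA PaCa-2, and the differences of TXNRD1 at 0.69 and NQO1 at 0.80.

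Whether the lines responded differently was tested by the interaction contrast in a fit of all 12 libraries. Of the 10 genes, 2 were called, TXNRD1 and NQO1, where 10.4% of all 16544 tested genes were called (6.56% higher and 3.86% lower in Pa-Tu-8902). The response of TXNRD1 was higher in Pa-Tu-8902 by 0.69 ± 0.08 SE on the log2 scale (edgeR adjusted p = 7.77e-06), since it was lower with dox in both lines but less so in Pa-Tu-8902. For NQO1 the difference was 0.80 ± 0.09 SE (edgeR adjusted p = 4.49e-06), with a higher mean with dox in Pa-Tu-8902 and a lower one in MIA PaCa-2. Both differences were called without untreated MIA PaCa-2 replicate 2, at 0.75 and 0.77. GCLM (0.45 ± 0.08 SE, edgeR adjusted p = 0.000356), GSR (0.44 ± 0.08 SE, edgeR adjusted p = 0.000597) and SRXN1 (-0.46 ± 0.08 SE, edgeR adjusted p = 0.000542) passed the p threshold but not the fold limit. Thus 5 of the 10 passed the p threshold, against 16.9% of all genes, which include genes of low count. GCLC (-0.03 ± 0.09 SE), GSS (-0.08 ± 0.08 SE), NFE2L2 (-0.12 ± 0.08 SE) and KEAP1 (-0.17 ± 0.11 SE) did not pass. TXN, at -0.21 ± 0.14 SE (edgeR adjusted p = 0.322), did not pass either, but had -0.37 (edgeR adjusted p = 0.00372) without untreated MIA PaCa-2 replicate 2.

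Ratios of TPM within a library set partner genes against each other. The ratio of TXNRD1 to TXN was 0.451, 0.295 and 0.445 in untreated MIA PaCa-2 and 0.167, 0.157 and 0.163 with dox, with no overlap (p = 0.1 by a two-sided exact permutation test, which cannot go lower with 3 against 3 libraries). In Pa-Tu-8902 it was 0.194 ± 0.00976 without and 0.165 ± 0.0217 with dox (SD, n = 3, p = 0.2 by the same exact test), and the groups overlapped. The ratio in dox-treated MIA PaCa-2, 0.162 ± 0.00486, therefore lay within the range of dox-treated Pa-Tu-8902, from which untreated MIA PaCa-2 was apart. The ratio of GSS to GSR went in opposite directions, from 0.914, 0.896 and 0.889 to 0.734, 0.692 and 0.744 in Pa-Tu-8902 and from 1.90, 2.06 and 2.10 to 2.37, 2.30 and 2.35 in MIA PaCa-2, with no overlap in either line (p = 0.1 for both by the exact test). The ratio of GCLC to GCLM was 1.62 ± 0.215 without and 1.28 ± 0.16 with dox in Pa-Tu-8902 (p = 0.2 by the exact test), and 0.218 ± 0.0149 and 0.243 ± 0.0202 in MIA PaCa-2 (p = 0.3 by the exact test), with overlap in both. The ratio of NFE2L2 to KEAP1 was 0.32 ± 0.0163 and 0.326 ± 0.0218 in Pa-Tu-8902 and 0.557 ± 0.0683 and 0.553 ± 0.0464 in MIA PaCa-2, a difference within 1 SD in each line. With 8 ratios tested and a smallest possible p of 0.1, none could pass a threshold of 0.05.

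The isoform tables show which annotated transcripts carried these levels. GSR, TXN and SRXN1 each had 1 transcript with at least 5% of the gene's TPM in at least 3 libraries. For TXNRD1, the transcripts TXNRD1-205 and TXNRD1-214, which code for proteins of 499 and 551 residues, held most of the signal. With dox in MIA PaCa-2 TXNRD1-205 went from 89.6, 74.3 and 89.6 to 44, 36.6 and 40.6 TPM, and TXNRD1-214 from 77.9, 56.8 and 73.3 to 29, 33.2 and 30 TPM, both with no overlap. The share of TXNRD1-214 was 34.5% without and 34.2% with dox in MIA PaCa-2, but in Pa-Tu-8902 it was 23.0% (range 21.3% to 24.1%) in untreated libraries against 17.1% (range 15.9% to 18.3%) in dox-treated ones. GCLM-201, which codes for 274 residues, was at 7.93, 8.49 and 9.04 TPM in untreated Pa-Tu-8902 and at 50.7, 45.2 and 46.3 TPM in untreated MIA PaCa-2, whereas GCLM-204, with 252 residues, was at 13.0 ± 1.07 and 13.9 ± 3.18 TPM. The difference in GCLM between the lines was thus seen mostly in GCLM-201, with 34.8% of GCLM in untreated Pa-Tu-8902 and 67.5% in untreated MIA PaCa-2.

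KEAP1-202 and KEAP1-201 code for proteins of the same length, 624 residues, and differ in where they start. KEAP1-202 was the main transcript in each group (66.5% to 77.6% of KEAP1 as group means). KEAP1-201 was at 23.4, 21.3 and 23.8 TPM in untreated and 15.4, 18.8 and 20.4 TPM in dox-treated Pa-Tu-8902, and at 2.84, 2.63 and 2.87 TPM against 1.86, 1.69 and 1.62 TPM in MIA PaCa-2. Its groups did not overlap with dox in either line, while KEAP1-202 went from 82.9 ± 5.28 to 99.8 ± 2.03 TPM in Pa-Tu-8902, or from 39.3 ± 1.33 to 50.4 ± 3.02 TPM in MIA PaCa-2. NFE2L2-202 was at 8.55, 9.52 and 9.55 TPM without and 17.8, 12.7 and 13.7 TPM with dox in Pa-Tu-8902 (23.2% and 32.2% of NFE2L2), with no overlap, beside NFE2L2-201 at 25.0 ± 1.45 and 23.3 ± 4.48 TPM. In MIA PaCa-2 NFE2L2-202 was at 7.61, 6.03 and 5.27 TPM without and 10.7, 9.54 and 8.26 TPM with dox (21.2% and 26.5%). Its groups did not overlap there either, and NFE2L2-201 was at 17.1 ± 2.59 and 21.2 ± 1.11 TPM. These are RSEM estimates of reads shared between transcripts, were not tested, and their shares of expected counts differ from their shares of TPM.

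**Figure D4:**
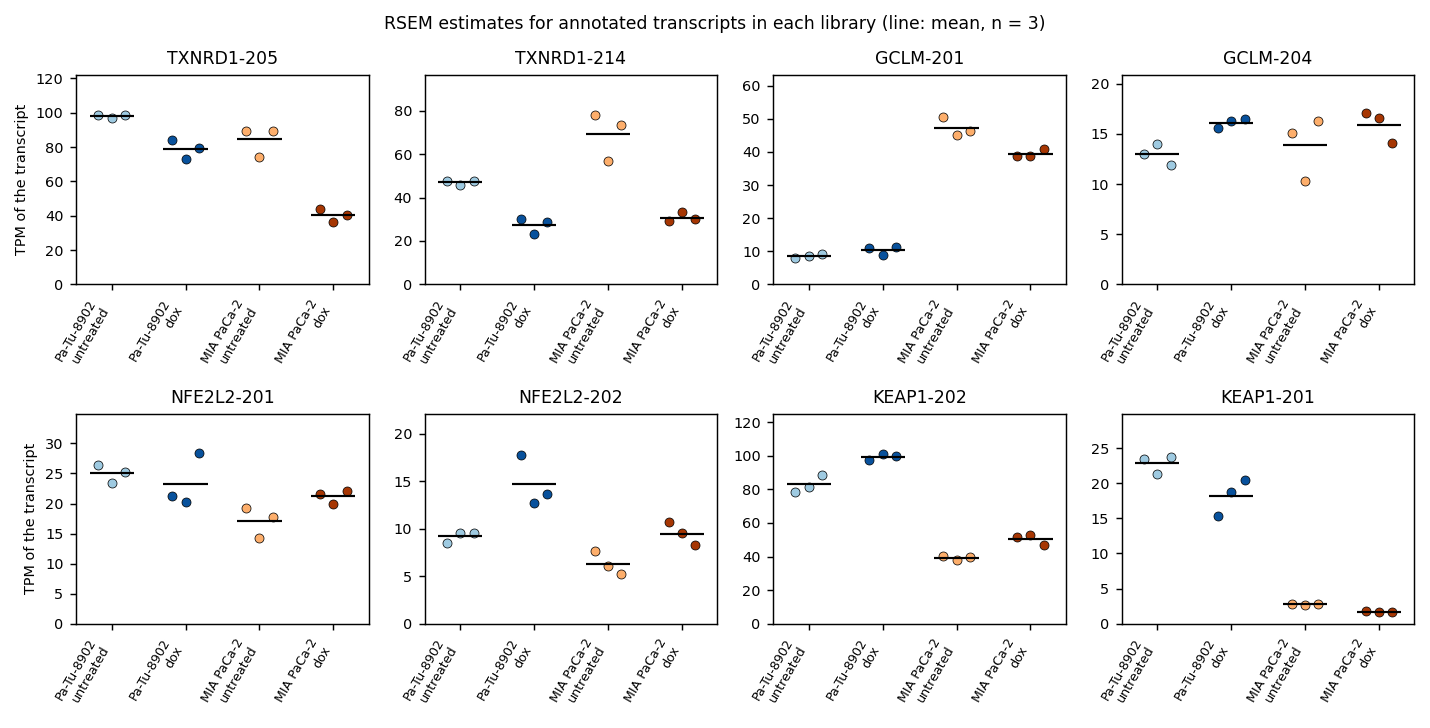
TPM of 8 annotated transcripts (y axes from 0, a scale of its own for each) in the 12 libraries, by group on the x axes; points are libraries and lines the means of 3. GCLM-201 is at 8.49 TPM in untreated Pa-Tu-8902 and 47.4 TPM in untreated MIA PaCa-2, while GCLM-204 is at 13.0 and 13.9 TPM; KEAP1-201 is at 22.8 and 2.78 TPM.

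The other genes of these pathways were described in 4 lists without the 10 genes; some genes, such as SLC7A11, stand in 2 lists. In Pa-Tu-8902, 14 of 32 tested genes of the list of other NRF2 targets were called with dox, 13 higher and 1 lower (43.8%, against 16.3% of all genes), with a median log2 fold change of 0.28. HMOX1, which degrades heme, rose from 187 ± 29.3 to 1415 ± 103 normalised counts (log2 2.92 ± 0.10 SE, edgeR adjusted p = 1.24e-08). The exporter ABCC3 rose by 2.47, the aldo-keto reductase AKR1C3 by 2.21 and the aldehyde dehydrogenase ALDH3A1 by 1.39 on the log2 scale. AKR1C3 shares sequence with its paralogs, so its count is uncertain. In MIA PaCa-2, 9 of 33 tested genes of this list were called, 3 higher and 6 lower (27.3%, against 12% of all genes), with a median of -0.01. HMOX1 rose there too, from 374 ± 15 to 1286 ± 39.2 normalised counts (log2 1.78 ± 0.07 SE, edgeR adjusted p = 2.92e-08). The study itself reports HMOX1 as unaltered by GOT1 knockdown in Pa-Tu-8902 and as upregulated in MIA PaCa-2. The study's main text does not name the assay behind that statement, and its methods describe quantitative RT-PCR as well as RNA-seq. The rise in Pa-Tu-8902 found here by RNA-seq differs from that report, which may rest on another measure and other samples. The cause was not tested. The ferritin light chain FTL fell from 54200 ± 4497 to 23625 ± 246 (log2 -1.20 ± 0.07 SE, edgeR adjusted p = 3.43e-07), and PTGR1, a prostaglandin reductase, fell by 0.97. The interaction contrast called 12 of 34 genes of this list, each with the higher response in Pa-Tu-8902 (35.3%, against 10.4% of all genes), among them ALDH3A1 (3.63), ABCC3 (1.67), IDH1 (1.42) and PTGR1 (1.29 on the log2 scale). ALDH3A1 had a mean of only 10.6 normalised counts in MIA PaCa-2, near the floor, so the size of its difference is not reliable. ABCC3 was low there too (73.2), as was PTGR1 in Pa-Tu-8902 (83.9), and both were named through their counts in the other line.

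In the glutathione list, 4 of 34 tested genes rose and 6 fell with dox in Pa-Tu-8902 (29.4% called, against 16.3% of all genes), and 4 of 37 were called in MIA PaCa-2, each of them lower (10.8%, a share no higher than the 12% of all genes), with medians of 0.02 and -0.22. SLC7A11, the cystine carrier that supplies cysteine for glutathione, fell from 560.0 ± 48 to 204 ± 45.2 normalised counts in MIA PaCa-2 (log2 -1.45 ± 0.14 SE, edgeR adjusted p = 1.25e-05), and by 0.73 in Pa-Tu-8902. GPX1, a glutathione peroxidase, fell in both lines, by 1.13 in MIA PaCa-2 and by 0.77 in Pa-Tu-8902, and the difference of 0.36 ± 0.15 SE between these responses was not called (edgeR adjusted p = 0.0875). MGST2 fell by 0.77 and CBS by 0.59 in MIA PaCa-2. The call of CBS was at the fold limit and was lost, at a log2 fold change of -0.57, -0.57 or -0.51, when untreated replicate 2, untreated replicate 3 or dox-treated replicate 3 was left out. In Pa-Tu-8902 the exporter ABCC4 fell by 1.32, and CHAC1 and CHAC2, which break down glutathione, fell by 0.80 and 0.79, while GGT1, which cleaves it outside the cell, rose by 0.82. For CHAC1 the difference of -0.40 ± 0.18 SE from its response in MIA PaCa-2 was not called (edgeR adjusted p = 0.108). The interaction called CTH (1.22), GSTA4 (1.21), MGST2 (1.15) and GSTM4 (1.10) with the largest differences, among 11 of 38 genes (28.9%, against 10.4% of all genes). In Pa-Tu-8902 CTH, GSTA4 and GSTM4 had means of only 62.4, 22.6 and 82.5 normalised counts, and they were named through their counts in MIA PaCa-2. They rose by 1.04, 1.04 and 1.25 in Pa-Tu-8902 and were not called in MIA PaCa-2 (-0.18, -0.17 and 0.15), so these differences rest on low counts.

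In the thioredoxin list, 5 of 29 tested genes were called in Pa-Tu-8902 and 3 of 28 in MIA PaCa-2 (17.2% and 10.7%, close to the 16.3% and 12% of all genes). PRDX3, the mitochondrial peroxiredoxin, fell by 0.86 and the methionine sulfoxide reductase MSRB3 by 1.06 in Pa-Tu-8902, where ARRDC3 rose by 0.81 and SESN3 by 0.71. PRDX3 (-0.53 ± 0.07 SE, edgeR adjusted p = 0.00012) and MSRB3 (-0.43 ± 0.14 SE, edgeR adjusted p = 0.0323) were also lower with dox in MIA PaCa-2, and neither was called there. Their differences, -0.33 ± 0.09 SE (edgeR adjusted p = 0.0133) for PRDX3 and -0.63 ± 0.17 SE (edgeR adjusted p = 0.0104) for MSRB3, were not called. TXNL4A fell by 1.03 in MIA PaCa-2 and by 0.67 in Pa-Tu-8902, and the difference of 0.36 ± 0.12 SE was not called (edgeR adjusted p = 0.0395). Its call in Pa-Tu-8902 was lost without dox-treated replicate 1 (-0.57). In MIA PaCa-2 TXNDC17 fell by 0.65 and the sestrin SESN2 rose by 0.63, but both calls rested on untreated replicate 2. TXNDC17 had 2180.5, 3348.5 and 2216.6 normalised counts without dox, and without replicate 2 its log2 fold change was -0.42 and that of SESN2 0.58, both under the fold limit, which left TXNL4A as the 1 called gene of 28. TXNDC17 also lost its call without dox-treated replicate 2 or 3 (edgeR adjusted p = 0.0159 and 0.0161). The interaction called 1 of 29 genes of this list, ARRDC3 (1.07), which is 3.45% against 10.4% of all genes, and 2 without untreated MIA PaCa-2 replicate 3. Among 26 partners and regulators of NRF2, TRIM21 alone was called in Pa-Tu-8902 (log2 0.78, 3.85% of the list, against 16.3% of all genes; 2 were called without untreated replicate 2), and NFE2L3 (0.94) and SQSTM1 (0.76), whose product binds KEAP1, rose in MIA PaCa-2 (8.33% of 24 tested, against 12% of all genes). SQSTM1 also passed the p threshold in Pa-Tu-8902 (0.26 ± 0.07 SE, edgeR adjusted p = 0.00978). Its difference between the lines, -0.50 ± 0.10 SE, was under the fold limit (edgeR adjusted p = 0.00107). The interaction called TRIM21 (0.91), NFE2L3 (-0.77), MAFK (-0.60) and the low-count NFE2 (3.46), which is 15.4% of this list against 10.4% of all genes. MAFK and NFE2 lay at the limits. With 1 library left out MAFK stayed called in 7 of 12 fits and NFE2 in 4 of the 9 fits in which it was tested, and 2 genes of the list were called without dox-treated Pa-Tu-8902 replicate 2, untreated MIA PaCa-2 replicate 1 or dox-treated MIA PaCa-2 replicate 2.

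**Figure D5:**
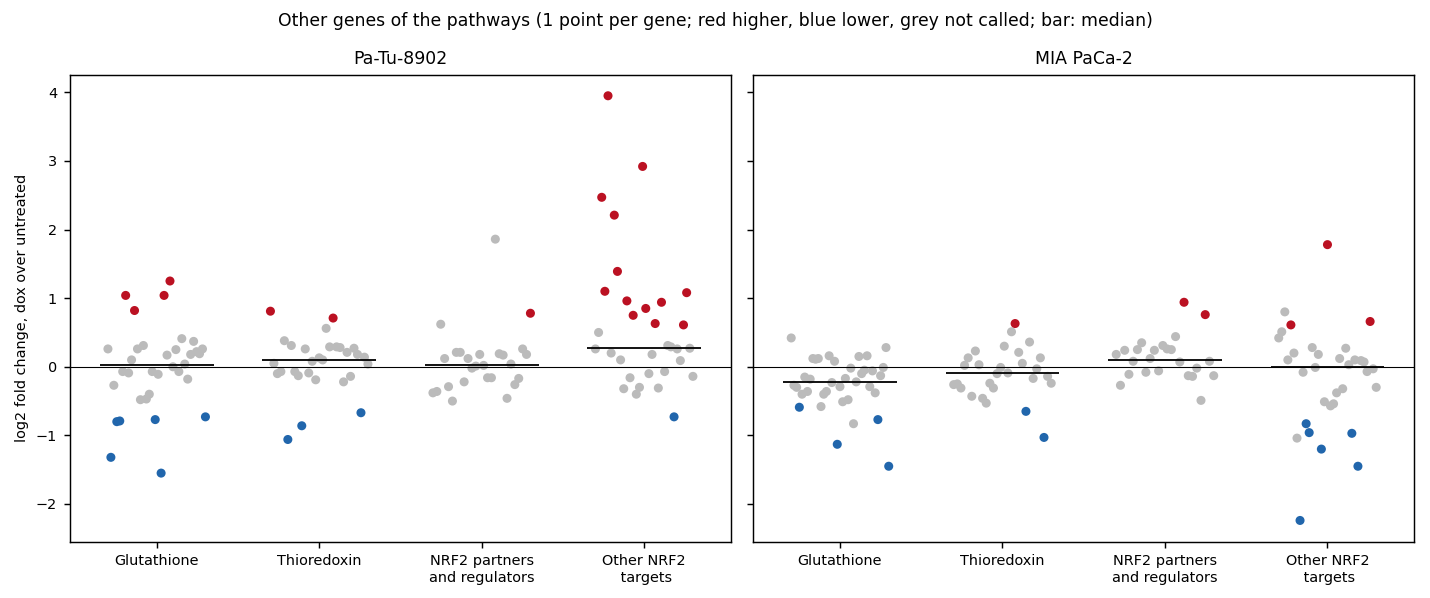
Log2 fold change with dox (y axis) of every tested gene of the 4 lists in Pa-Tu-8902 (left) and MIA PaCa-2 (right); each point is a gene, red and blue were called higher and lower, and bars are medians. The list of other NRF2 targets has 13 higher and 1 lower in Pa-Tu-8902 and 3 higher and 6 lower in MIA PaCa-2.

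Between the untreated lines, 27 of 38 genes of the glutathione list, 18 of 29 of the thioredoxin list, 11 of 25 partners and regulators and 24 of 33 other targets were called (71.1%, 62.1%, 44% and 72.7%, against 58.1% of all genes). GSTM3 and CBR1 had 0 counts in all untreated Pa-Tu-8902 libraries, and with a floor of 3 counts per library were at least 530-fold and 615-fold lower there than in MIA PaCa-2. CBS (1.45 ± 2.51 against 1397 ± 81.3 normalised counts), GSTM1 (1.28 ± 1.39 against 1233 ± 65.6) and AKR1C1 (11.1 ± 8.45 against 5279 ± 681) were close to the floor in Pa-Tu-8902 as well, as was SESN3 in MIA PaCa-2 (1.03 ± 1.78 against 301 ± 7.2). GSTA4 (-5.16) and ABCC2 (-5.76) were lower and ALDH3A1 (5.37 on the log2 scale) was higher in Pa-Tu-8902. The peroxiredoxins PRDX6 (-1.77) and PRDX1 (-1.48) were lower in Pa-Tu-8902, and nucleoredoxin, NXN (2.76), NFE2L3 (2.68), DPP3 (2.24), CDKN1A (1.31) and MAFG (1.08) were higher.

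Across the 12 libraries, after the mean of each line was removed, the genes most like TXNRD1 among 10972 genes were MFSD6 (Pearson r = 0.996), GOLM1 (0.996) and PAPSS1 (0.995). For NQO1 they were HIST1H2BC (0.986), HIST1H2AC (0.978) and COQ2 (0.976), and for GSR they were YPEL5 (0.986), FAM114A1 (0.984) and SLC39A7 (0.982). The leading genes were RHOB for GSS (0.991), EIF2B2 for SRXN1 (0.993), RPS24 for TXN (0.986), SPATS2L for GCLM (0.977) and INTS14 for NFE2L2 (0.968), and CTDP1 was among those of KEAP1 (0.966). GCLC had the lowest leading value, with DHX29 (0.914). The points share the 2 dox contrasts and the libraries, so these values are a description, and with Spearman's rho at most 1 of the 3 leading genes of any of the 10 stayed the same.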

How the data were processed

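Strand-specific poly(A) libraries of 150-base paired-end reads were made by the authors, who trimmed reads with Trimmomatic 0.39 and estimated expression with RSEM 1.3.1, which called STAR 2.5.2a with default parameters on GRCh38 with the GENCODE v29 annotation. The values used are the deposited RSEM expected counts of genes and transcripts, neither normalised nor filtered (5.34% not whole, rounded here), and the deposited TPM, scaled by the authors' pipeline to transcript length and to the same total in each library. RSEM's effective lengths entered 1 alternative. No strand setting is given.

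The 10 genes, the lists and the tests were chosen with earlier results of these data known. Libraries were grouped by title. The part read of the study's supplementary table names count columns for Pa-Tu-8902 that hold values deposited for MIA PaCa-2; line markers followed the titles. Counts were tested with edgeR 4.0.16 in R 4.3.3 (TMM, glmQLFit and glmQLFTest) for genes that reached 10 counts in 3 or more libraries of a comparison. Called genes had an adjusted p below 0.01 and at least 1.5-fold. Normalised counts are counts over the effective size of the library relative to the mean of the 12. SE is the absolute log2 fold change over the square root of F. Ratios were tested by exact permutation in Python 3.11.15. On simulated data with 200 genes changed 2-fold, edgeR called 196 of them and 3 others in Pa-Tu-8902 (14734 genes), 195 and 5 in MIA PaCa-2 (14393), 196 and 5 between untreated lines (15286), and 189 and 3 in the interaction (16041).

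Library totals were 26226537 to 43406137 counts; floors of 3 counts cover counting error only. The genes named are the 10, GOT1, up to 4 called genes with the largest change in each list and comparison among those with a mean of at least 100 normalised counts, and the most alike genes; SLC7A11, GPX1 and TXNL4A in Pa-Tu-8902 and NFE2 were added after their values were seen. Deviations of same-numbered libraries had r from -0.18 to 0.199, and those of other pairs from -0.339 to 0.264, so numbers were not used as pairs. With 3 libraries a group these values cannot show whether same-numbered libraries were prepared together. Alternatives were DESeq2 1.42.0, its size factors, other filters and thresholds, effective lengths, limma 3.58.1 on log2(TPM + 1), a replicate block, 1 fit of all libraries and each library left out; for the lists, leaving out each library was added after the data were seen. Positions and overlaps are from GENCODE release 44 and RefSeq on GRCh38. Some genes that the rule gives are not reported here.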

Additional observations from a re-analysis of the deposited data

Results flagged for a closer look

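TXNRD1 and NQO1 responded to dox differently in the lines by a test of the difference itself, the interaction contrast over all 12 libraries. For TXNRD1 the log2 fold change was 0.69 higher in Pa-Tu-8902 than in MIA PaCa-2 (edgeR adjusted p = 7.77e-06), with lower counts with dox in 3 of 3 libraries of each line. For NQO1 it was 0.80 higher (edgeR adjusted p = 4.49e-06), with 3 of 3 dox-treated libraries above the untreated ones in Pa-Tu-8902 and 3 of 3 below them in MIA PaCa-2. The cause of these differences was not tested.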

How the results depend on the processing

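Of the log2 fold changes of the 10 genes over the alternatives, 650 kept their direction and side of the threshold, 23 were newly called, 9 lost their call and 8 changed sign, all 8 among values that were not called. Without the fold limit 6 of the 10 genes and 5692 of all genes were called in Pa-Tu-8902 (against 1 and 2443), 5 and 3973 in MIA PaCa-2 (against 1 and 1751), and 5 and 2799 in the difference of the responses (against 2 and 1724). With limma on log2(TPM + 1) 974 genes were called in MIA PaCa-2, and TXNRD1 between the untreated lines had 0.036 in place of -0.12; the cause was not tested. Leaving out 1 library at a time gave 0 to 1 called gene of the 10 in Pa-Tu-8902, where GSR lost its call without untreated or without dox-treated replicate 2. It gave -0.0691 to 0.00156 for GCLC and -0.0871 to 0.197 for TXN with dox in MIA PaCa-2, and -0.0779 to 0.0157 for GCLC in the difference. Replicate numbers were not used as pairs in the main fits. With the replicate block 2380, 1735, 8891 and 1611 genes were called in Pa-Tu-8902, MIA PaCa-2, the untreated lines and the difference, against 2443, 1751, 9072 and 1724. The block ended no call among the 10. The calls of GSS and GSR between the untreated lines changed places with DESeq2, with its size factors, with limma, with 1 fit of all libraries and without each untreated Pa-Tu-8902 library in turn, and GSR was called beside GSS without untreated MIA PaCa-2 replicate 1. No library had fewer than 822 counts of any of the 10 genes, while list genes near the floor of 3 counts have no reliable fold change.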

Other observations

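Of the ferritin chains, FTH1, the heavy chain, was called higher in Pa-Tu-8902 (log2 0.75 ± 0.08 SE, edgeR adjusted p = 2.51e-05) and was not called in MIA PaCa-2 (0.18 ± 0.09 SE, edgeR adjusted p = 0.152). FTL, the light chain, was not called in Pa-Tu-8902 (-0.40 ± 0.09 SE, edgeR adjusted p = 0.00306) and fell in MIA PaCa-2 (-1.20 ± 0.07 SE, edgeR adjusted p = 3.43e-07). In the difference of the responses FTL was called at 0.80 ± 0.12 SE (edgeR adjusted p = 0.000119). FTH1, at 0.58 ± 0.14 SE (edgeR adjusted p = 0.00479), passed the p threshold there but not the fold limit. Without untreated MIA PaCa-2 replicate 2, FTH1 had a log2 fold change of 0.30 in MIA PaCa-2 (edgeR adjusted p = 3.4e-05), still under the fold limit. The oxidoreductase PIR (0.94 ± 0.06 SE, edgeR adjusted p = 8.04e-07), IDH1, the cytosolic isocitrate dehydrogenase that makes NADPH (0.85 ± 0.07 SE, edgeR adjusted p = 2.39e-06), and the epoxide hydrolase EPHX1 (0.96 ± 0.10 SE, edgeR adjusted p = 1.74e-05) also rose in Pa-Tu-8902. FTH1, PIR, IDH1 and EPHX1 were named after their values were seen.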
